A study of Rattus norvegicus with 10 samples.

Results

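Genes of fatty acid oxidation and ketogenesis were examined in rat liver RNA after sleeve gastrectomy or a sham operation. The 29 genes were listed by name for their function, from the uptake of fatty acids to ketone bodies and further targets of the nuclear receptor PPAR alpha. Each value is the sum over the isoforms that match the annotated gene or share its splice junctions or its exons on the same strand. Values were found for 28 of the 29, among 20226 genes in all, and all 28 passed the filter on low values (a mean of at least 1 FPKM, fragments per kilobase of transcript, scaled by the authors to the size of each library), as did 11139 genes in the series. Cd36, which encodes a fatty acid transporter, is not analysed here.

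Fatty acids enter the hepatocyte, are bound by a cytosolic carrier and activated to acyl-CoA, and cross into mitochondria as carnitine esters. Each turn of beta oxidation then takes a dehydrogenation, a hydration, a further dehydrogenation and a thiolytic cleavage, while peroxisomes shorten the longest chains. The acetyl-CoA that is formed feeds ketone body synthesis in the fasting liver, and PPAR alpha, a receptor activated by fatty acids, drives many of these genes.

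The SG group held 5 liver samples of wild-type Wistar rats sampled 3 months after sleeve gastrectomy, which cuts away the greater part of the stomach so that a narrow sleeve remains. The SHAM group held 5 liver samples of wild-type Wistar rats after a sham operation, with no time after surgery given, so that time and operation cannot be told apart. All rats had eaten a diet with 60% of its calories as fat for 4 weeks and received 35 mg/kg of streptozotocin, which destroys pancreatic beta cells, after 16 h of fasting. They were used when fasting glucose exceeded 16.7 mmol/L 3 days later and were divided at random into groups of matched body weight. A group without diabetes is not part of the comparison. Whether every library stands for a separate rat is not stated, and the p-values then measure only how far these libraries differ, which may be technical.

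Total estimated counts ranged from 77617460 to 92110190 per library in SG and from 65824088 to 85520959 in SHAM. All 10 hepatocyte markers examined were present, and their summed level was 25645 to 39321 FPKM in SG and 25346 to 34821 FPKM in SHAM. Alb made up most of these sums, at a mean of 22058 FPKM. Of the 10, 2 had a positive and 8 a negative log2 fold change, at a median of -0.13. SG 2 and SHAM 5 stood apart in macrophage markers, whose sums were 573 FPKM in SG 2 and 513 FPKM in SHAM 5, the highest of each group. Of 10 macrophage markers tested, 3 had a positive and 7 a negative log2 fold change, at a median of -0.27. Adipocyte markers summed to 15.1 to 29.9 FPKM in SG and 12.997 to 23.2 FPKM in SHAM, and among them Adipoq was listed at 0 in every library but SG 2. Cidea, Lipe and Cfd made up most of these sums, and Plin1 reached at most 0.182 FPKM, in SHAM 2. Red blood cell markers summed to 135 to 489 FPKM in SG and 245 to 1202 FPKM in SHAM, and all 4 tested had negative log2 fold changes, at a median of -1.05. Stellate cell and fibroblast markers summed to 42.4 to 109 FPKM in SG, with SG 2 highest, and 33.0 to 64.1 FPKM in SHAM, with 7 of 8 tested positive at a median of 0.37. The B and plasma cell marker Jchain had a log2 fold change of 1.12, and 4 of 5 SG libraries were above every SHAM library. None of the markers examined passed in edgeR (lowest adjusted p of 0.991). Jchain, Acta2, Cidea and Lyve1 had an unadjusted p under 0.05 there, as did 4.53% of all genes. Log2 fold changes were 0.91 for Acta2, 0.95 for Cidea and -0.45 for Lyve1, where 4 of 6 endothelial markers tested were positive. The part of these cell types in the members' values was not tested. Libraries also differed widely in circadian clock genes within both groups, as described below. In bulk tissue, fewer cells of a type and less RNA per cell cannot be told apart.

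Promoter sequences are shown for the members with the closest match to DR1, the direct repeat with 1 base between its parts that pairs of PPAR alpha and its partner RXR bind. RefSeq windows of the GRCr8 build, from 250 bases before to 50 bases after the gene start, were found for 23 of the 28 members, 24 windows in all. Acaa2, Acadl, Decr1, Ech1 and Vnn1 had none among the sequences used. The motif searched on both strands was AGGTCA, any 1 base, and AGGTCA again. At most 1 mismatch among its 12 fixed bases was found in 2 of 24 member windows (8.33%) and in 147 of 33469 windows of the same length over all genes (0.439%). With up to 3 mismatches the shares were 37.5% of member windows and 24.9% of all windows. The close matches lie in Fabp1, at bases -77 to -65 on the opposite strand, and in Acadvl, at bases -17 to -5. The 250 bases before each start are printed 5′ to 3′ on the gene's strand, with the match in capitals. Fabp1 lies at chr4:104749090-104749339 on the plus strand and Acadvl at chr10:55236706-55236955 on the minus strand of GRCr8.
Fabp1: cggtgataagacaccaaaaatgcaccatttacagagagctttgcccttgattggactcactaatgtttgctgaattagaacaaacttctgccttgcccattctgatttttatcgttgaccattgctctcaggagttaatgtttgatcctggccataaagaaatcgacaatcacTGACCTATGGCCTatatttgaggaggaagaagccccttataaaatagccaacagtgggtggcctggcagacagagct
Acadvl: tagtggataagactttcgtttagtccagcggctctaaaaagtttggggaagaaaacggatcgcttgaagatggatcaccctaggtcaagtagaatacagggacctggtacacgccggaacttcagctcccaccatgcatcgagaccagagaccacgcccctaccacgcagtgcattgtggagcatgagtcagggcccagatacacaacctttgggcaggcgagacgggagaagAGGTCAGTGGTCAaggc

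Hadha and Hadhb encode the alpha and beta subunits of the mitochondrial trifunctional protein and lie head to head, with windows that share 200 bases. The best match of both, with 3 mismatches, is 1 and the same stretch at chr6:31907606-31907618 of GRCr8, printed here on each gene's strand with the whole match in capitals.
Hadha: AGGTCTTTGGTCT
Hadhb: AGACCAAAGACCT
These matches describe letters in a window and were not tested as binding sites.

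The comparison asked whether liver transcripts of this pathway differed between SG and SHAM rats. None of the 28 members passed edgeR's quasi-likelihood test at an adjusted p of 0.05, with adjusted p-values of 0.991 to 0.9997 after Benjamini-Hochberg adjustment over all genes. Of all 11139 genes 0 passed in edgeR, 505 had an unadjusted p under 0.05, and DESeq2 called 18 genes (0.162%), none of them a member. Fabp1 and Hadh had an unadjusted p under 0.05 in both tools, that is 2 of 28 members, against 4.53% of all genes in edgeR and 5.62% in DESeq2. Both were higher in SG, where 2.68% of all genes had such a p in that direction. In limma on log2(FPKM + 0.5) 0 members passed and Crot joined the pair at an unadjusted p under 0.05, against 6.28% of all genes.

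The log2 fold changes (SG over SHAM) of the 28 members ran from -0.31 for Vnn1 to 0.73 for Fabp1, with a median of 0.05, and the median over all tested genes was -0.01. There were 19 members with a positive value and 9 with a negative one, where 47.4% of all genes were positive. The median of the members was -0.04 without SG 1 and 0.17 without SG 3. On the FPKM scale limma gave 23 positive members and a median of 0.11, but the median of all genes was also higher there, at 0.08, and 69.6% of all genes were positive. In no member were the 2 groups fully apart, and such a separation was found in 1.31% of all genes with SG above and 0.0269% with SG below.

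For 19 of 28 members the 95% confidence interval left out a 2-fold change in both directions, against 84.9% of all genes. The interval left out a 1.5-fold change either way for 11 members, against 60.6% of all genes. The members' intervals were wider than those of most genes, the median half-width being 0.50 (log2) for members and 0.37 for all genes.

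**Figure D1:**
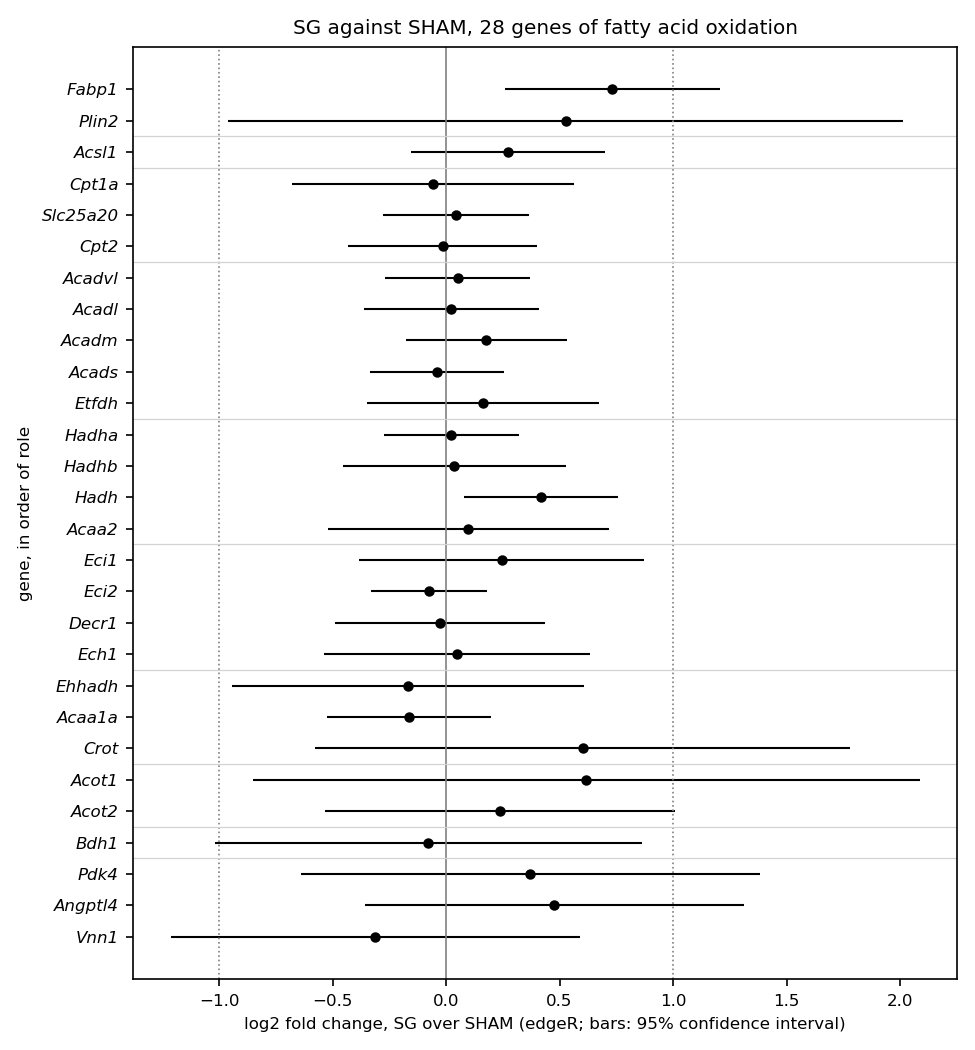
Log2 fold change of each of the 28 members, SG over SHAM, from edgeR, with its 95% confidence interval, in order of role. The intervals of Fabp1 and Hadh lie to the right of 0 and all other intervals include 0; dotted lines mark a 2-fold change either way.

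Among the genes of uptake, binding and storage, Fabp1 stood out. It encodes the abundant cytosolic fatty acid binding protein of the hepatocyte, a small gene with 4 exons at chr4:99063181-99066954 on the plus strand of Rnor_6.0. Fabp1 was measured at 300.2, 304.5, 286.9, 262.0 and 196.8 FPKM in SG 1 to SG 5, against 120.2, 112.5, 171.5, 200.7 and 151.7 FPKM in SHAM 1 to SHAM 5. In 4 of 5 SG libraries the value was above every SHAM library, and SG 5 lay just under SHAM 4. The mean was 270 ± 44.2 FPKM in SG and 151 ± 36.5 FPKM in SHAM (n = 5 libraries each, ± SD). This is a log2 fold change of 0.73 ± 0.21 (SE), with an interval of 0.26 to 1.21, and edgeR gave an unadjusted p of 0.00618 and an adjusted p of 0.991. Across 20 alternative settings Fabp1 remained positive, between 0.63 and 0.87 on the log2 scale, and its adjusted p ran from 0.238 in DESeq2 to 0.999 without SHAM 3.

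Plin2, which coats lipid droplets, varied far more between libraries than between groups. Its level was 19.6, 28.3, 4.80, 33.3 and 35.9 FPKM in SG 1 to SG 5, against 7.69, 4.10, 11.8, 32.2 and 28.5 FPKM in SHAM 1 to SHAM 5. SG 3 lay with the low SHAM libraries, and SHAM 4 and SHAM 5 lay among the high SG libraries. The log2 fold change was 0.53 ± 0.67 in edgeR, with an interval of -0.96 to 2.02. Without SHAM 2 it was 0.27, and without SHAM 4 it was 0.87.

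Acsl1, which activates long-chain fatty acids by joining them to coenzyme A, had the highest level of all members per length, at a mean of 395 FPKM over the 10 libraries. It was measured at 548, 368, 447, 448 and 405 FPKM in SG 1 to SG 5, against 378, 474, 226, 378 and 281 FPKM in SHAM 1 to SHAM 5. SHAM 2 exceeded all SG libraries but SG 1. The log2 fold change was 0.27 ± 0.19, with an interval of -0.15 to 0.70.

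**Figure D2:**
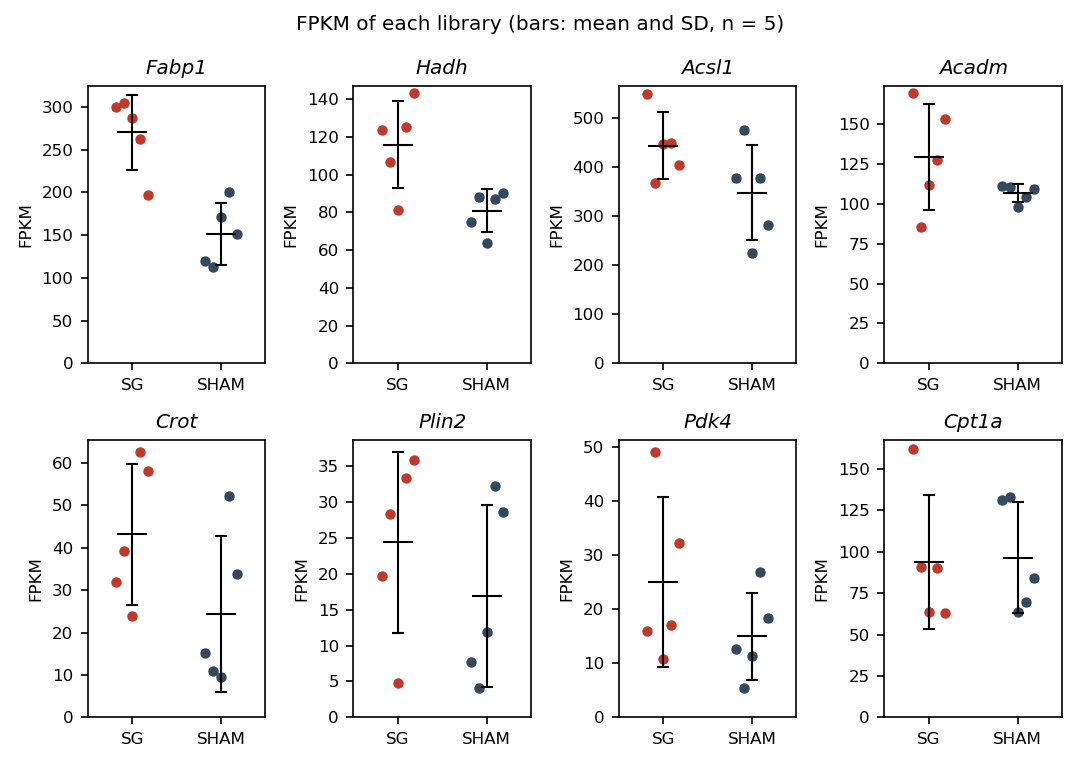
FPKM of 8 members in each library, SG on the left and SHAM on the right of each panel; points are libraries and bars give the mean and SD (n = 5). For Fabp1, Hadh and Acadm 4 of 5 SG points lie above every SHAM point, and for Acadm SG 2 lies below every one. For Plin2 and Cpt1a most points of both groups overlap. For Pdk4 SG 2 and SG 5 lie above every SHAM point and SHAM 2 below every SG point.

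The 3 genes of the carnitine shuttle did not separate the groups. Cpt1a forms acylcarnitine at the outer mitochondrial membrane and is the gate of the pathway. It had 162, 90.6, 63.7, 90.04 and 62.8 FPKM in SG 1 to SG 5, against 131, 133, 63.8, 69.5 and 84.2 FPKM in SHAM 1 to SHAM 5. SG 1 was far above the other SG libraries, and SHAM 1 and SHAM 2 were above all SG libraries but SG 1. Its log2 fold change was -0.06 ± 0.28 with an interval of -0.68 to 0.56, and it was -0.32 without SG 1. Slc25a20, the carrier that exchanges acylcarnitine for carnitine across the inner membrane, averaged 53.3 ± 11.2 FPKM in SG and 48.3 ± 4.32 FPKM in SHAM, a log2 fold change of 0.04 ± 0.14. Cpt2, which returns the acyl group to coenzyme A inside the mitochondrion, averaged 59.0 ± 13.6 FPKM in SG and 55.6 ± 11.1 FPKM in SHAM, a log2 fold change of -0.02 ± 0.19. The intervals of Slc25a20 and Cpt2 lay between -0.43 and 0.40.

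The acyl-CoA dehydrogenases catalyse the entry step of each beta oxidation cycle and differ in the chain length they prefer. Acadvl, for very long chains, had 117, 95.3, 69.8, 114 and 114 FPKM in SG 1 to SG 5, against 91.0, 91.6, 95.2, 98.4 and 82.6 FPKM in SHAM 1 to SHAM 5. The SHAM values lay inside the range of the SG values. The same held for Acadm, for medium chains, with 170, 85.2, 112, 127 and 153 FPKM in SG 1 to SG 5, against 111, 111, 97.9, 104 and 109 FPKM in SHAM 1 to SHAM 5. In Acadm 4 of 5 SG libraries were above every SHAM library, SG 3 by little, and SG 2 was below every one. Log2 fold changes were 0.05 ± 0.14 for Acadvl, 0.02 ± 0.17 for the long-chain enzyme Acadl, 0.18 ± 0.16 for Acadm and -0.04 ± 0.13 for the short-chain enzyme Acads. Their 95% intervals together reached from -0.36 to 0.53. Etfdh, which passes electrons from these enzymes to the respiratory chain, had a log2 fold change of 0.16 ± 0.23. It lay between 47.1 and 92.5 FPKM in SG and between 45.7 and 83.5 FPKM in SHAM.

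In the later steps of the mitochondrial cycle, Hadh was the other member with an unadjusted p under 0.05. It encodes the hydroxyacyl-CoA dehydrogenase for short and medium chains and lies at chr2:236353445-236395067 on the minus strand of Rnor_6.0. Hadh had 123, 107, 81.4, 125 and 143 FPKM in SG 1 to SG 5, against 74.9, 88.1, 64.0, 87.2 and 90.6 FPKM in SHAM 1 to SHAM 5. Again 4 of 5 SG libraries exceeded every SHAM library, and SG 3 fell among the SHAM values. Its mean was 116 ± 23.2 FPKM in SG and 80.9 ± 11.3 FPKM in SHAM (n = 5 libraries each, ± SD). The log2 fold change was 0.42 ± 0.15 with an interval of 0.08 to 0.76, at an unadjusted p of 0.0199 and an adjusted p of 0.991 in edgeR. Over the alternative settings its unadjusted p ran from 0.0035 without SG 3 to 0.050 without SG 5, and its adjusted p from 0.547 to 0.999.

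The trifunctional protein, which carries out the last 3 steps on long chains, was close to even in both subunits. Hadha averaged 93.7 ± 17.8 FPKM in SG and 86.1 ± 4.43 FPKM in SHAM, a log2 fold change of 0.02 ± 0.13. Hadhb averaged 98.8 ± 31.9 FPKM in SG and 90.03 ± 13.9 FPKM in SHAM, a log2 fold change of 0.04 ± 0.22. The intervals, from -0.28 to 0.32 for Hadha and from -0.45 to 0.53 for Hadhb, left out a 1.5-fold change either way. Acaa2, the thiolase of medium and short chains, was second in level after Acsl1. It was measured at 556, 196, 205, 275 and 409 FPKM in SG 1 to SG 5, against 261, 250, 315, 337 and 253 FPKM in SHAM 1 to SHAM 5. SG 2 and SG 3 were below every SHAM library and SG 1 and SG 5 above every one, so the SG group spanned the SHAM group on both sides. The log2 fold change of Acaa2 was 0.10 ± 0.28, and it was -0.18 without SG 1.

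Unsaturated fatty acids need auxiliary enzymes that move or reduce double bonds. The isomerase Eci1 had a log2 fold change of 0.25 ± 0.28, and the isomerase Eci2 of mitochondria and peroxisomes one of -0.08 ± 0.12, with the narrowest interval of all members, from -0.33 to 0.18. The Eci2 sum joins isoforms of separate stretches of chromosome 17 and isoforms that span them. An annotated isoform at chr17:30617382-30639040 held 75.2% of the FPKM and had -0.21 ± 0.17. Of those that end at base 30573310, MSTRG.9653.1 had 0.32 ± 0.20 and MSTRG.9653.2 had 0.64 ± 0.47. The annotated ENSRNOT00000022022, which ends there too, had -0.66 ± 0.48. Decr1, the mitochondrial dienoyl-CoA reductase, had a value of -0.03 ± 0.21, and Ech1, a dienoyl-CoA isomerase, one of 0.05 ± 0.27. For Eci1, Decr1 and Ech1, SG 2 and SG 3 were the 2 lowest SG libraries and lay at 67.4 to 122 FPKM. Eci1 lay between 93.6 and 238 FPKM in SG and between 104 and 171 FPKM in SHAM. Decr1 lay between 67.4 and 148 FPKM in SG and between 98.5 and 116 FPKM in SHAM.

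Peroxisomal genes did not share a direction. Ehhadh, the bifunctional hydratase and dehydrogenase of peroxisomes and a classic PPAR alpha target in rodents, had 358, 83.1, 143, 220 and 181 FPKM in SG 1 to SG 5, against 275, 190, 166, 268 and 140 FPKM in SHAM 1 to SHAM 5. The highest and the lowest of all 10 values were both SG libraries. Its log2 fold change was -0.17 ± 0.35 in edgeR, and it was -0.50 without SG 1 and 0.03 without SG 2. Acaa1a, a peroxisomal thiolase, had -0.16 ± 0.16. Crot, which transfers medium-chain products to carnitine so that they can leave the peroxisome, had 31.9, 39.2, 23.9, 62.6 and 58.1 FPKM in SG 1 to SG 5, against 15.3, 10.9, 9.49, 52.2 and 33.8 FPKM in SHAM 1 to SHAM 5. All SG libraries exceeded SHAM 1 to SHAM 3, whereas SHAM 4 and SHAM 5 were as high as some SG libraries. The log2 fold change of Crot was 0.60 ± 0.53, with an interval of -0.58 to 1.78, and it was 1.17 without SHAM 4.

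The acyl-CoA thioesterases Acot1 and Acot2 release free fatty acids in the cytosol and in mitochondria, and both are known PPAR alpha targets in rodents. Acot1 was the lowest member in level, with 1.82, 2.301, 0.444, 0.796 and 5.44 FPKM in SG 1 to SG 5, against 1.56, 0.383, 1.86, 1.82 and 1.09 FPKM in SHAM 1 to SHAM 5. SG 5 alone stood above the rest, and the log2 fold change of 0.62 ± 0.66 became -0.14 without it. Acot2 had a value of 0.24 ± 0.35, and it was 0.01 without SG 5. Assembled isoforms named for Acot2 (MSTRG.20041.1 and MSTRG.20041.2) run across both genes, so the split of reads between the genes is uncertain. Those named for Acot1 (MSTRG.20041.4 and MSTRG.20041.6) run to bases 107537646 and 107537659, past the end of the annotated Acot1 isoform at 107493798. That annotated isoform carried 15.2% of the Acot1 FPKM, and whether the rest comes from beyond the gene was not tested.

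Bdh1, which reduces acetoacetate to beta-hydroxybutyrate, was the member on the ketone body side. It had 56.6, 64.5, 21.7, 55.4 and 31.9 FPKM in SG 1 to SG 5, against 34.7, 24.6, 25.3, 84.0 and 59.0 FPKM in SHAM 1 to SHAM 5. The 2 ranges overlapped almost fully, and the log2 fold change was -0.08 ± 0.43, with an interval of -1.02 to 0.86. Without SHAM 4 it was 0.29.

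The remaining PPAR alpha targets were among the most variable members. Pdk4 encodes a kinase that shuts off pyruvate dehydrogenase and so spares glucose. It was measured at 15.9, 49.1, 10.7, 17.1 and 32.1 FPKM in SG 1 to SG 5, against 12.6, 5.48, 11.4, 26.9 and 18.4 FPKM in SHAM 1 to SHAM 5. SG 2 and SG 5 were above every SHAM library, SHAM 2 was below every SG library, and the others overlapped. Its log2 fold change was 0.37 ± 0.46, but 0.06 without SG 2 and 0.71 without SHAM 4. Limma on log2(FPKM + 0.5) gave 0.69 for Pdk4. The estimated counts used in edgeR follow FPKM multiplied by length, so long assembled isoforms weigh more there. In edgeR the isoform MSTRG.16192.7 of 3648 nt had 1.01 ± 0.63, and MSTRG.16192.5 of 13552 nt had -1.09 ± 0.82. Angptl4, a secreted inhibitor of lipoprotein lipase, had 17.6, 21.7, 6.47, 14.03 and 26.7 FPKM in SG 1 to SG 5, against 20.7, 6.05, 8.19, 12.6 and 7.48 FPKM in SHAM 1 to SHAM 5. SG 3 was the one low SG library and SHAM 1 the one high SHAM library, at a log2 fold change of 0.48 ± 0.38. Vnn1, a pantetheinase that takes part in coenzyme A turnover, lay between 8.21 and 29.1 FPKM in SG and between 9.85 and 28.99 FPKM in SHAM, with the lowest log2 fold change of all members, -0.31 ± 0.41.

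Of these variable members, Crot, Plin2 and Pdk4 ran along the libraries with the circadian clock. Dbp, a clock output gene, had 21.8, 4.20, 81.1, 3.42 and 3.23 FPKM in SG 1 to SG 5, against 22.7, 83.6, 20.5, 2.34 and 4.63 FPKM in SHAM 1 to SHAM 5. Arntl, a core activator of the clock, had 1.23, 7.16, 0.211, 7.91 and 7.00 FPKM in SG 1 to SG 5, against 1.62, 0.438, 0.927, 7.22 and 5.62 FPKM in SHAM 1 to SHAM 5. SG 2, SG 4, SG 5, SHAM 4 and SHAM 5 therefore had low Dbp and high Arntl. These same 5 libraries held the 5 highest values of Crot, of Plin2 and of Pdk4. That was not so for Angptl4, where SG 1 and SHAM 1 were among the 5 highest. Nor was it so for Vnn1 and Acot1, where SHAM 3 was among them. How many of all genes share this pattern is not given here. The time of day of sampling is not stated in the labels, and the part of the clock in these values was not tested apart from a fit with a clock score as a covariate. In that edgeR fit the standard error of Crot was 0.23, against 0.53 without the score, and its log2 fold change was 0.63, at an unadjusted p of 0.0202 and an adjusted p of 0.924 (adjusted p-values of Crot ran from 0.781 to 0.9999 over the alternatives). Plin2 had 0.28 ± 0.31 and Pdk4 0.26 ± 0.21 there, while Fabp1 was at 0.72 ± 0.21 and Hadh at 0.37 ± 0.13. Crot, Plin2 and Pdk4 were named for running with Dbp and Arntl, which are part of the score. Their smaller standard errors in this fit are thus no separate evidence on the clock or on the groups. In that fit 0 of 28 members passed in edgeR and 3 had an unadjusted p under 0.05, all higher in SG, against 2.87% of all genes in that direction.

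**Figure D3:**
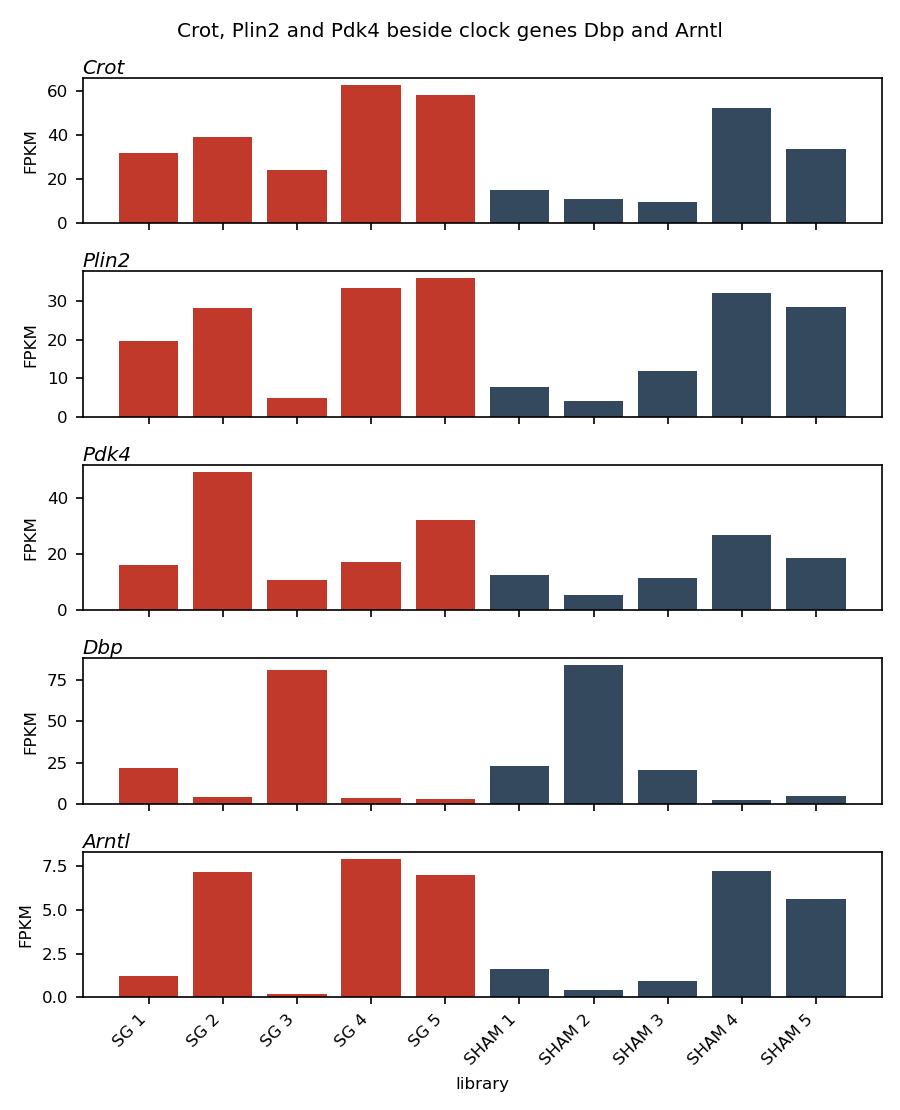
FPKM of Crot, Plin2 and Pdk4 in each library above the clock genes Dbp and Arntl, with the 5 SG libraries on the left and the 5 SHAM libraries on the right. Crot, Plin2 and Pdk4 are highest in SG 2, SG 4, SG 5, SHAM 4 and SHAM 5, the libraries with 2.34 to 4.63 FPKM of Dbp.

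Within the SG group most members were high or low in the same libraries. SG 1 had the highest value of all 10 libraries for 14 of 28 members, Acsl1, Cpt1a, Slc25a20, Acadvl, Acadl, Acadm, both trifunctional subunits and Acaa2 among them, and lay above the members' own means for 27. SG 5 was the highest library for 8 members. SG 3 was the lowest library for 9 members and above the mean for 2, and SG 2 was the lowest for 6. Measured as log2 deviation from each member's mean, the median over the members was 0.45 in SG 1, -0.11 in SG 2, -0.44 in SG 3, 0.24 in SG 4 and 0.29 in SG 5. It was -0.06, -0.14, -0.03, 0.14 and -0.18 in SHAM 1 to SHAM 5, so the SHAM libraries lay closer together. These values rest on FPKM without further scaling between libraries, and the same medians over all genes are not given here. Whether whole libraries shifted along with the members was not tested. Over all tested genes the median SD of log2 values was 0.23 in SG and 0.25 in SHAM.

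The spread within groups differed for the members. The SD of log2 values was larger in SG than in SHAM for 21 of 28 members, against 42.3% of all tested genes, and its median over the members was 0.49 in SG and 0.34 in SHAM. For the trifunctional subunit Hadha the coefficient of variation was 19.0% in SG and 5.15% in SHAM. For Acadm it was 25.7% in SG and 5.21% in SHAM, and for Decr1 it was 32.3% in SG and 7.28% in SHAM. The count was again 21 without SG 1, 18 without SG 3 and 16 without both libraries. The shares of all genes were then 42.9%, 40.7% and 39.6%. The members' median SD in SG was 0.41, 0.41 and 0.36 in turn, against 0.34 in SHAM. These alternatives were added after seeing the data. The difference in spread is a description, since the members share the same libraries.

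**Figure D4:**
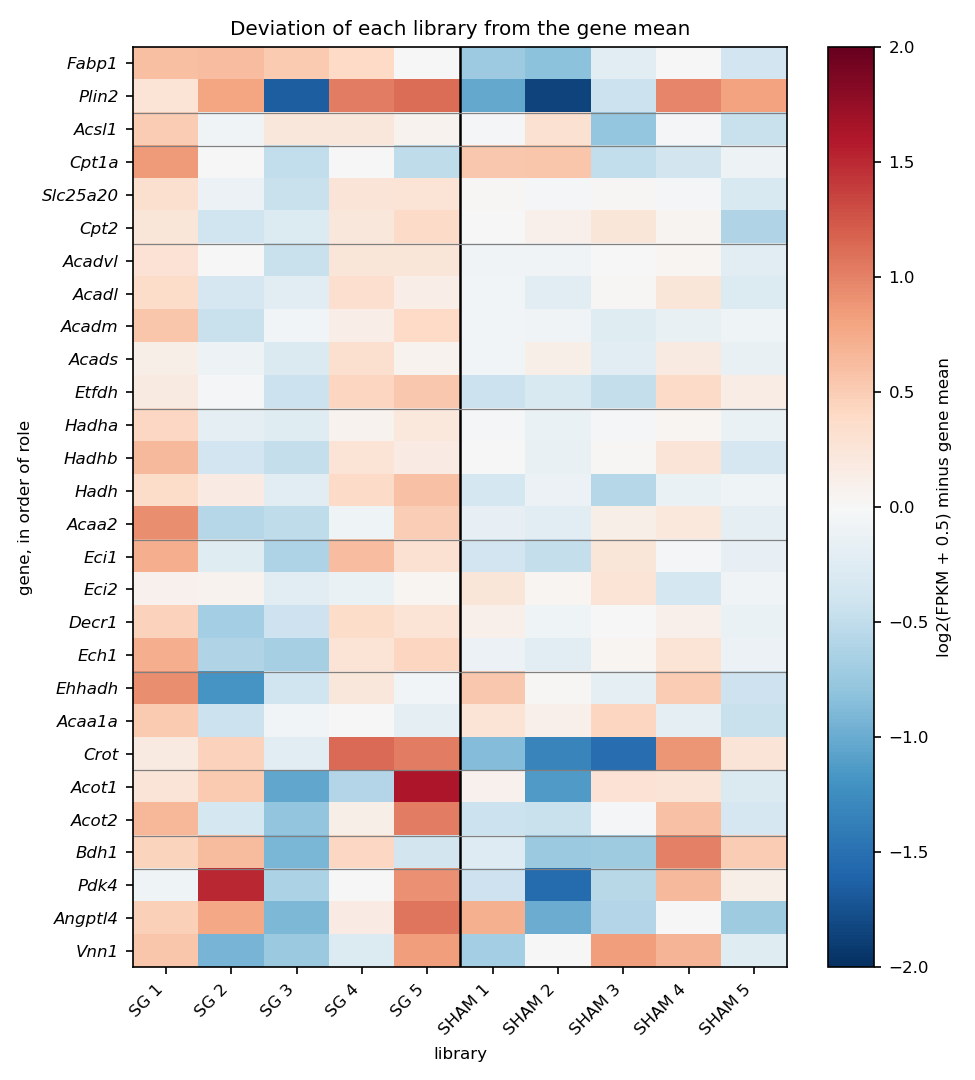
Deviation of each library from the mean of each member, in log2(FPKM + 0.5), with members in order of role from top to bottom and the SG libraries left of the black line. The SG 1 column is above the mean for 27 members and the SG 3 column for 2, while Hadha, Acadm and Decr1 stay pale in all SHAM columns.

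At the level of isoforms, 13 members were represented by 1 isoform and 15 by more. Annotated isoforms carried at least 90% of the FPKM in 15 members, Fabp1, Hadh and all 4 acyl-CoA dehydrogenases among them, and under 50% in 8 members. In Pdk4, 3.0% of the FPKM was in the annotated isoform of 1573 nt with 11 exons, and the leading assembled isoform had 3648 nt and 9 exons. Of 70 member isoforms tested among 39559, 0 passed in edgeR and 4 had an unadjusted p under 0.05, against 4.12% of all isoforms. An assembled isoform of Angptl4 (MSTRG.20744.6) had 7.95, 6.72, 0.33, 1.16 and 12.5 FPKM in SG 1 to SG 5, against 1.25, 1.802, 0.53, 1.502 and 0.305 FPKM in SHAM 1 to SHAM 5. SG 1, SG 2 and SG 5 were above every SHAM library and SG 3 and SG 4 were not, at a log2 fold change of 2.33 ± 0.88, an unadjusted p of 0.0249 and an adjusted p of 0.99996 in edgeR. Another assembled isoform of Angptl4 (MSTRG.20744.4), which carried 4.70% of the gene, had 0.0971, 0.107, 0.425, 0.159 and 0.0835 FPKM in SG 1 to SG 5, against 1.95, 0.142, 0.105, 1.16 and 2.42 FPKM in SHAM 1 to SHAM 5. SHAM 1, SHAM 4 and SHAM 5 were above every SG library and SHAM 2 and SHAM 3 were not, at a log2 fold change of -2.76 ± 0.93, an unadjusted p of 0.0144 and an adjusted p of 0.99996 in edgeR. The other isoforms with an unadjusted p under 0.05 were the single ones of Fabp1 and Hadh. The annotated isoform of Crot with 17 exons that carried 67.3% of the gene had a log2 fold change of 0.98 ± 0.57.

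A few members differed in their main isoform between libraries of the same group, which was noticed after their values were seen. In Eci1 an assembled isoform with 8 exons (MSTRG.3192.2) that ends past the annotated gene was at 96.7 FPKM in SG 5 and 97.9 FPKM in SHAM 4, and at 0.162 to 0.332 FPKM in the other 8 libraries. It carried 54.4% of Eci1 in SG 5 and 68.7% in SHAM 4, so that 1 library of each group held it. In Hadhb the balance fell into a pair of levels. The assembled isoform MSTRG.19418.3 carried 11.8% and 10.6% of the gene in SG 3 and SG 4 and 10.1% and 9.5% in SHAM 2 and SHAM 4, against 44.6% to 59.8% in the other 6 libraries. In Cpt1a the assembled isoform MSTRG.2171.2 carried 94.6% of the gene in SG 3, and 0.4% to 17.3% in the other 9 libraries, where MSTRG.2171.4 led with 70.8% to 90.3%. None of the 3 patterns followed the groups. The Hadhb isoforms that reach farthest upstream begin 18 bases from the start of Hadha on Rnor_6.0, which is the head-to-head arrangement seen in the RefSeq windows.

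**Figure D5:**
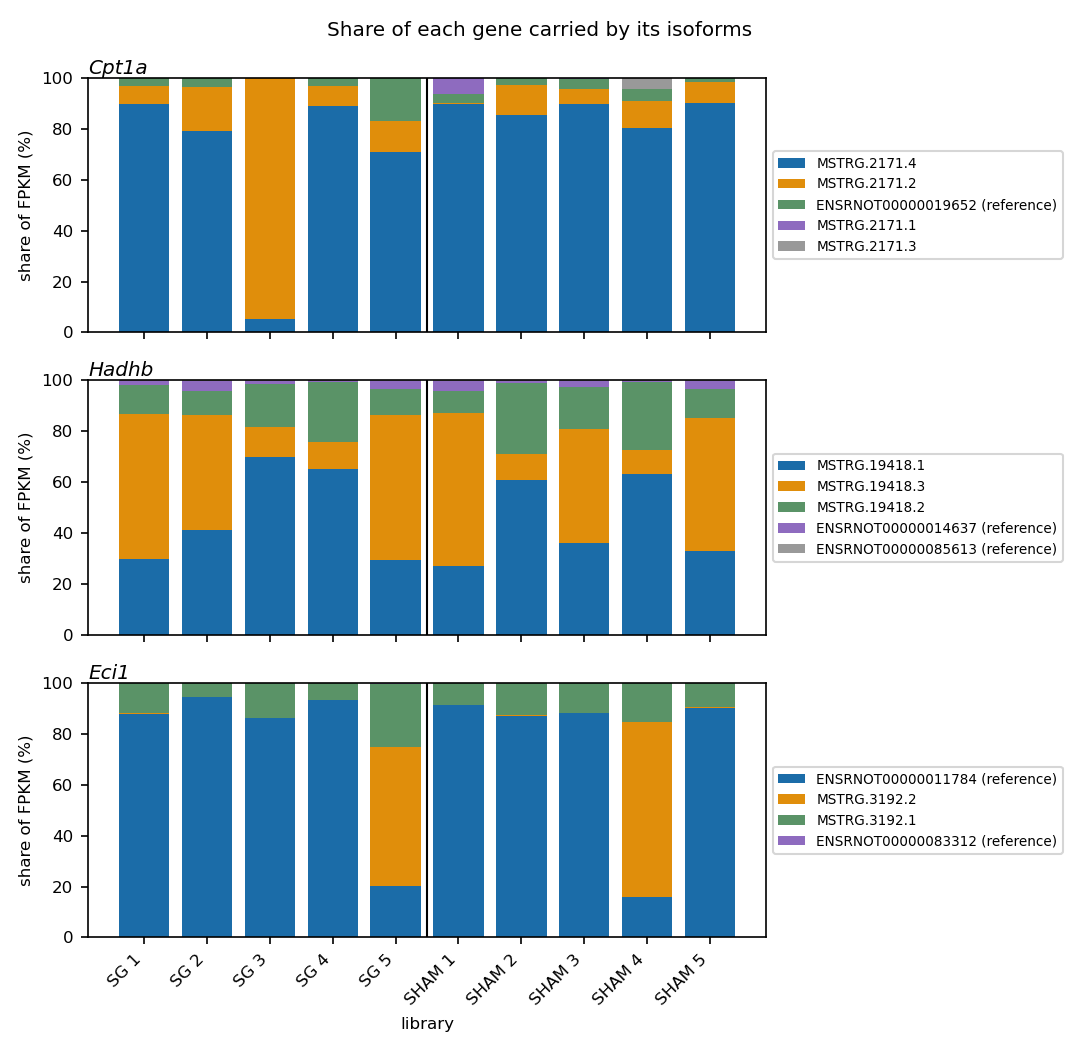
Share of the FPKM of Cpt1a, Hadhb and Eci1 carried by each isoform in each library, with SG left of the black line and SHAM right of it; every bar adds up to the whole gene. SG 3 stands apart for Cpt1a, SG 5 and SHAM 4 for Eci1, and SG 3, SG 4, SHAM 2 and SHAM 4 for Hadhb.

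Beyond the members, 83 further genes of the same pathways were examined, of which 72 were tested. There were 37 with a positive and 35 with a negative log2 fold change, at a median of 0.02. In edgeR 0 of the 72 passed and 1 had an unadjusted p under 0.05. DESeq2 passed 0 as well, with 2 at an unadjusted p under 0.05, and limma passed 0, with 6. Over all genes the shares with such a p were 4.53% in edgeR, 5.62% in DESeq2 and 6.28% in limma. The 1 gene in edgeR was Ivd, the isovaleryl-CoA dehydrogenase of leucine breakdown, with 46.3 ± 5.93 FPKM in SG and 57.8 ± 8.68 FPKM in SHAM (n = 5 libraries each, ± SD). Its log2 fold change was -0.41 ± 0.12, at an unadjusted p of 0.00601 and an adjusted p of 0.991 in edgeR (0.257 to 0.999 over the alternatives).

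Acat1, a mitochondrial thiolase that joins 2 acetyl-CoA units on the way to ketone bodies, had a log2 fold change of 0.05 ± 0.25. Crat, carnitine acetyltransferase, had 28.8, 15.8, 8.77, 29.6 and 25.9 FPKM in SG 1 to SG 5, against 10.4, 9.26, 9.995, 15.2 and 18.2 FPKM in SHAM 1 to SHAM 5. SG 1, SG 4 and SG 5 were above every SHAM library and SG 3 was below every one, and the log2 fold change was 0.67 ± 0.33. With annotated isoforms alone it was 1.36.

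The other named genes of these pathways also had adjusted p-values of 0.991 or more in edgeR. Dbi, a binding protein for acyl-CoA, had a log2 fold change of 0.42 ± 0.23, Etfb, a subunit of the electron transfer flavoprotein, 0.22 ± 0.11, and Abhd5, a co-activator of triglyceride lipase, 0.33 ± 0.18. The peroxisomal thioesterase Acot8 had -0.35 ± 0.16. Ppara itself had -0.17 ± 0.29, its co-activator Ppargc1a -0.10 ± 0.25, and Lpin1, which acts with both, -0.17 ± 0.43. Fgf21, a hormone of the fasting liver under PPAR alpha, lay between 1.16 and 8.16 FPKM in SG and between 0.513 and 37.8 FPKM in SHAM, where SHAM 4 held that highest value and the next was 4.38 FPKM. Its log2 fold change of -1.42 ± 1.10 became 0.81 without SHAM 4.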

How the data were processed

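Total RNA of 10 liver samples was depleted of ribosomal RNA and sequenced as paired ends, with RNA integrity above 7.0, per the labels' protocols. Per the submitters' processing notes, the build was Rnor_6.0 and the tools included HISAT2 2.0.4, StringTie 1.3.4, cutadapt 1.9 and FastQC 0.10.1. The authors deposited FPKM values for 51430 isoforms in each library. Beside them the authors deposited estimated counts, which follow FPKM multiplied by length and thus divide reads among isoforms by estimate. Use of strand in counting is not stated.

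Isoforms of class code =, c, j or o were summed by gene name (77 isoforms for the 28 genes, 35 annotated and 42 assembled). Genes entered at a mean of at least 1 FPKM and isoforms at 0.1 FPKM when above 0 in at least 5 libraries. The main test was the quasi-likelihood test of edgeR 4.0.16 in R 4.3.3, run on rounded estimated counts, two-sided, with TMM scaling, Benjamini-Hochberg adjustment over all genes and a threshold of 0.05; it was tested on simulated data. DESeq2 1.42.0, limma 3.58.1 on log2(FPKM + 0.5), other filters and pseudocounts, annotated isoforms alone, a replicate block, a clock score (mean log2 level of 9 clock genes minus that of 4 others) and left-out libraries were alternatives. Estimated counts of the members ran from 55 for Acot1 to 197265 for Acsl1.

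The members and lists were chosen with earlier results of these data known. All members were named. Of the further pathway genes, those with the 6 smallest p-values and 5 fixed names are given, and some listed genes are not reported here. Of isoforms with at least 10% of a gene, the 5 with the smallest p-values were candidates to name, and others were named after their values were seen. Replicate numbers did not pair the libraries: deviations of same-numbered libraries correlated at -0.25 to 0.13, over 0.1 in 1 of 5 pairs. No libraries were duplicates. Promoters are RefSeq windows of GRCr8, and no coordinates were converted.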

Additional observations from a re-analysis of the deposited data

Results flagged for a closer look

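Of 78 groups of 5 libraries examined for the named genes, 5 had 1 library far from the other 4 by a test for which chance gives about 1 in 20. Among the members, Cpt1a was at 161.9 FPKM in SG 1 against 62.8 to 90.6 FPKM in the other SG libraries. Slc25a20 was at 40.7 FPKM in SHAM 5 against 49.3 to 51.2 FPKM in the other SHAM libraries, and SHAM 5 also had the highest macrophage markers of its group, whose part in that value was not tested. Of the further pathway genes, Ppargc1a was at 3.71 FPKM in SG 3 against 1.64 to 2.18 FPKM in the other SG libraries. Acot8 was at 3.43 FPKM in SHAM 1 against 2.51 to 2.68 FPKM in the other SHAM libraries. Fgf21 was at 37.8 FPKM in SHAM 4 against 0.513 to 4.38 FPKM in the other SHAM libraries.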

How the results depend on the processing

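No member passed under any of the 20 alternatives (edgeR gave 0 of 28 in the main test, with 2 at an unadjusted p under 0.05). The sign held in every alternative that gave a value for 14 members, Fabp1, Hadh, Crot, Plin2 and Acsl1 among them. It turned under some alternative for the other 14. In the main test only the intervals of Fabp1 and Hadh left out 0. With 1 library left out, the members' median ranged from -0.04 to 0.17. Genes passing were 18 in DESeq2, 0 to 1 with 1 library left out (1 without SG 5 and 1 without SHAM 1) and 1 without SG 2 and SHAM 5 together, against 0 in edgeR. Isoforms passing were 0 to 6 with 1 library left out (6 without SHAM 1) and 2 without SG 2 and SHAM 5 together.

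Log2 fold changes that turned sign with 1 library left out ranged from -0.32 to 0.079 for Cpt1a, -0.022 to 0.14 for Slc25a20, -0.12 to 0.078 for Cpt2, -0.0081 to 0.15 for Acadvl, -0.064 to 0.12 for Acadl and -0.14 to 0.032 for Acads. They ranged from -0.076 to 0.083 for Hadha, -0.15 to 0.15 for Hadhb, -0.18 to 0.24 for Acaa2, -0.14 to 0.11 for Decr1, -0.15 to 0.19 for Ech1 and -0.50 to 0.026 for Ehhadh. The ranges were -0.14 to 0.88 for Acot1 and -0.25 to 0.29 for Bdh1, and outside the members -0.058 to 0.20 for Acat1, -0.28 to 0.059 for Ppara, -0.37 to 0.053 for Ppargc1a, -0.36 to 0.39 for Lpin1 and -1.91 to 0.81 for Fgf21.

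Limma on FPKM, where all genes lie higher by a median of 0.08, turned the sign of Cpt2 (0.078, 0.079 and 0.078 at pseudocounts of 0.5, 0.1 and 1), Acads (0.046, 0.046 and 0.045), Decr1 (0.0066, 0.0064 and 0.0070), Bdh1 (0.077, 0.078 and 0.076) and Lpin1 (0.051, 0.060 and 0.042), and of Fgf21 at 0.5 and 0.1 (0.023 and 0.17). Annotated isoforms alone gave 0.39 for Cpt1a, -0.022 for Hadhb and -0.10 for Abhd5, and no value for Acaa1a, Acot1 and Pdk4; with the sign kept, they gave -0.72 for Bdh1 (-0.08 in the main test), 1.36 for Crat (0.67), 0.87 for Crot (0.60), 0.083 for Plin2 (0.53) and -0.27 for Eci2 (-0.08). The clock score gave 0.021 for Cpt1a, -0.00031 for Acadl and 0.11 for Lpin1. Without SG 2 and SHAM 5 together Decr1 was at 0.089. The cause was not tested in these cases.

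Replicate numbers did not pair the libraries, since 2 of 10 libraries correlated best with their own number. With the replicate number as a block 0 genes passed in edgeR, 456 had an unadjusted p under 0.05, the members' median was 0.02, and signs turned for Hadhb (-0.0086), Ech1 (-0.033) and Lpin1 (0.042).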

Other observations

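The table also holds 9 isoforms that lie at the members but on the opposite strand, inside an intron or just beside the gene, and that were left out of the sums. Use of strand in counting is not stated, so reads of a gene and its opposite partner cannot be told apart. The highest was MSTRG.9072.1, opposite to Acsl1 at chr16:48949998-48952421 on Rnor_6.0, which averaged 17.6 ± 7.22 FPKM in SG against 16.4 ± 6.54 FPKM in SHAM (± SD of 5 libraries each). MSTRG.2172.1, inside an intron of Cpt1a, averaged 6.12 ± 1.14 FPKM in SG, against 5.98 ± 3.18 FPKM in SHAM. MSTRG.16126.1, inside an intron of Crot, had 3.58, 5.11, 0.839, 6.32 and 5.14 FPKM in SG 1 to SG 5, against 3.19, 1.55, 0.723, 5.60 and 4.18 FPKM in SHAM 1 to SHAM 5. Its 5 highest libraries were those of Crot itself.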
